A study of Mus musculus with 6 samples.

Results

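The matrix metalloproteinases *Mmp2*, *Mmp3*, *Mmp9*, *Mmp11*, *Mmp13*, *Mmp14* and *Mmp19* and the tissue inhibitors *Timp1*, *Timp2* and *Timp3* were described in cultured mouse muscle satellite cells (SCs), as the collagen-degrading enzymes and inhibitors of the expression table. Each was taken as the row of the table that carries its gene name, which gave 10 genes of 55416, 7 enzymes and 3 inhibitors, with 1 row each. RNA was sequenced from 6 libraries, 3 of WT and 3 of *Ltf*-KO SCs, to ask how the loss of lactoferrin (*Ltf*), a secreted iron-binding glycoprotein, alters these muscle stem cells. The *Ltf*-KO mice carried a systemic deletion of internal exons made with CRISPR-Cas9 in C57/BL6N zygotes, so every cell of the animal lacked the gene and not only the SCs. The SCs of both genotypes were sorted from digested hind leg muscle as Sca1-, CD11b-, CD34+ and α7-integrin+ cells. They were collected in a medium with serum, chick embryo extract and basic fibroblast growth factor. Growth was for 4 days on Matrigel, and the methods name no separate growth medium and no treatment of the sequenced cells. The labels give neither age nor sex, and the methods give one general age range for all mice of the study. Nothing in the labels says whether the libraries of a genotype came from separate animals, so p-values measure only the spread between these libraries, which may be technical. Matrigel is itself a basement membrane extract, so the cells of both genotypes grew on a substrate of these enzymes.

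Metalloproteinases are zinc enzymes that cleave collagens, gelatin, fibronectin, laminin and other matrix proteins. Most are secreted as inactive pro-enzymes and become active when their pro-domain is removed, by plasmin, by furin-like proteases or by one another. TIMPs bind the active site of the enzymes and block it, and TIMP-2 also has a part in activation, since a complex of MMP-14 and TIMP-2 at the cell surface captures pro-MMP-2 for cleavage. In muscle, SCs lie under a basement membrane that has to be opened before they migrate, and MMP-2, MMP-9 and MMP-14 are the members best known from that setting. RNA levels do not measure the activation or the inhibition of the enzymes.

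The authors deposited TPM values, which set the reads of each gene against its length and bring every library to one total, so levels can be compared between genes, while the reads behind each value are not known. Totals were 993650 to 994356 TPM, and 12828 to 12951 genes were at 1 TPM or more. *Ltf* itself was listed at 0.12, 0.02 and 0.02 TPM in WT and at 0.02, 0.03 and 0 TPM in *Ltf*-KO libraries, near the floor in both, so it does not check the labels. The libraries held the markers of activated SCs and myoblasts, with *Myod1* at 748 to 816 TPM and *Pax7* at 36.6 to 43.3 TPM, while *Calcr*, a marker of quiescent SCs, was at 0 to 0.07 TPM. *Ltf*-KO was compared with WT by limma on log2(TPM + 1) over the 12956 genes that reached a mean level of 1 TPM, a scale on which the change of a low gene is understated.

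The inhibitors outweighed the enzymes in these cells. *Timp1* was the highest of the 10 genes, with a mean of 539 TPM over the 6 libraries, followed by *Timp2* at 104 TPM and *Mmp14* at 85.8 TPM. *Mmp2*, *Timp3* and *Mmp11* lay between 7.20 and 10.7 TPM, *Mmp13* and *Mmp3* were at 2.50 and 1.48 TPM, and *Mmp19* and *Mmp9* were under 1 TPM, at 0.825 and 0.177 TPM. Of the steps in this order, the libraries did not overlap between *Timp1* and *Timp2*, between *Mmp14* and *Mmp2*, between *Mmp11* and *Mmp13*, or between *Mmp19* and *Mmp9*. The other neighbours overlapped, and *Timp3* was above *Mmp11* in only 3 of 6 libraries. For none of the 8 members tested was the difference between the genotypes larger than the test could set apart from the spread of the libraries. No member had a limma adjusted p under 0.05, where this held for 0% of all genes tested. No member had an unadjusted p under 0.05 either, against 3.78% of all genes tested. In 0 of the 8 did the WT and *Ltf*-KO libraries separate without overlap, which was the case for 8.46% of all genes tested. The limma adjusted p of these 8 was 0.999 in each, and at least 0.946 under every alternative run. *Mmp9* and *Mmp19* fell below the filter of 1 TPM, and *Mmp9* was the one member whose libraries separated by genotype.

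**Figure D1:**
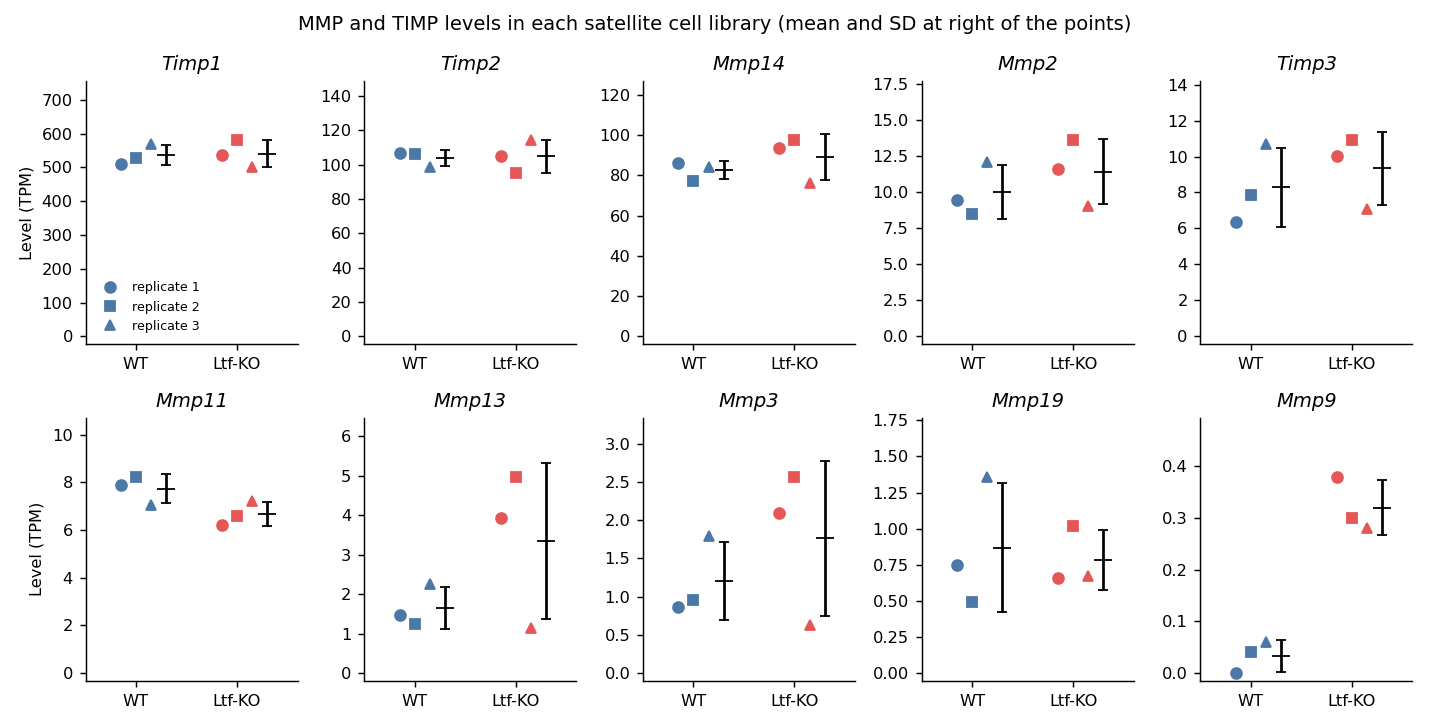
Level in TPM (vertical axis, from 0) of each of the 10 genes in the 3 WT (blue) and 3 *Ltf*-KO (red) libraries, with the replicate number as the marker shape and the mean and SD beside the points. The libraries of the genotypes overlap for every gene but *Mmp9*, whose *Ltf*-KO values of 0.28 to 0.38 TPM lie above the WT values of 0 to 0.06 TPM.

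*Mmp14* (ENSMUSG00000000957), which encodes the membrane-anchored collagenase MT1-MMP, was by far the main enzyme RNA, with 77.0% to 80.8% of the summed TPM of the 7 enzymes in each library. It was at 86.1, 77.3 and 84.4 TPM in WT and at 93.3, 97.6 and 76.0 TPM in *Ltf*-KO libraries, in the order of replicates 1, 2 and 3, which is kept below. Both the highest and the lowest library were *Ltf*-KO. The means were 82.6 ± 4.63 TPM (SD, n = 3) in WT against 89.0 ± 11.5 TPM (SD, n = 3) in *Ltf*-KO libraries, a log2 fold change of 0.10 (standard error 0.099, 95% confidence interval -0.14 to 0.34, limma unadjusted p = 0.352). Without *Ltf*-KO replicate 3 the log2 fold change was 0.21 (limma unadjusted p = 0.016, adjusted p = 0.994). Without *Ltf*-KO replicate 2 it was 0.029 (limma unadjusted p = 0.781). The gene lies on chromosome 14 of GRCm38, plus strand, and spans 54431612 to 54445364.

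*Mmp2* (ENSMUSG00000031740) encodes the gelatinase that MT1-MMP activates, and lies on chromosome 8, plus strand, from 92827291 to 92853420. Its levels were 9.46, 8.50 and 12.1 TPM in WT and 11.6, 13.6 and 9.07 TPM in *Ltf*-KO libraries. WT replicate 3 and *Ltf*-KO replicates 1 and 2 were the higher ones, so each genotype held high and low libraries. The means of 10.0 ± 1.87 TPM (SD, n = 3) in WT against 11.4 ± 2.28 TPM (SD, n = 3) in *Ltf*-KO libraries gave a log2 fold change of 0.17 (standard error 0.17, 95% confidence interval -0.24 to 0.58, limma unadjusted p = 0.359).

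*Mmp9* (ENSMUSG00000017737), the second gelatinase, which neutrophils and macrophages are known to supply in injured muscle, lies on chromosome 2, plus strand, from 164940780 to 164955850. It was listed at 0, 0.04 and 0.06 TPM in WT and at 0.38, 0.30 and 0.28 TPM in *Ltf*-KO libraries. All 3 *Ltf*-KO libraries were thus above all 3 WT libraries. Among the 13597 genes above 0 in any library with a mean under 1 TPM, this order was found for 356, a share of 2.62%. The means were 0.0333 ± 0.0306 TPM (SD, n = 3) and 0.320 ± 0.0529 TPM (SD, n = 3), a ratio of 9.60, at levels where a few reads may make up a value. With no filter, limma gave *Mmp9* a log2 fold change of 0.35 (standard error 0.049, unadjusted p = 0.000375, adjusted p = 0.765), which placed it at rank 13 of 26553 genes by p, where 3.35% of genes had an unadjusted p under 0.05. The log2 fold change was 0.32 to 0.37 with any one library left out and 1.68 with a pseudocount of 0.1, and the limma adjusted p was 0.498 to 0.770 over these fits and 0.977 with the replicate block, all chosen after seeing the data. The macrophage markers *Adgre1* and *Itgam* were at 0 to 0.08 and 0 to 0.07 TPM, and the neutrophil markers *Elane*, *Mpo* and *Ly6g* at 0 to 0.08, 0 to 0.16 and 0 to 0.18 TPM. The 10 macrophage markers summed to 12.3 to 18.4 TPM in WT and 10.1 to 13.0 TPM in *Ltf*-KO libraries, mostly from *Cd14*, *Cd68* and *Lyz2*, and 0 of the 3 tested had an unadjusted p under 0.05. Of these 3, *Cd68* was lower in all *Ltf*-KO libraries, at 3.12 to 3.52 TPM, than in the WT libraries, at 3.56 to 3.98 TPM. The 9 neutrophil markers summed to 1.16 to 3.53 TPM in WT and 1.09 to 4.13 TPM in *Ltf*-KO libraries, and the 1 tested, *S100a9*, did not have an unadjusted p under 0.05. The sums of both lists overlapped between the genotypes, and whether such cells contributed to the *Mmp9* values was not tested.

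*Mmp13* (ENSMUSG00000050578) encodes the main interstitial collagenase of mice and was the most variable of the 8 members tested, with an SD of 0.62 over the 6 libraries on the log2(TPM + 1) scale. Its levels were 1.46, 1.25 and 2.25 TPM in WT and 3.92, 4.98 and 1.15 TPM in *Ltf*-KO libraries. *Ltf*-KO replicates 1 and 2 were above every WT library, and *Ltf*-KO replicate 3 was below every one of them. The mean in *Ltf*-KO SCs was 2.03 times that in WT, 3.35 ± 1.98 TPM (SD, n = 3) against 1.65 ± 0.527 TPM (SD, n = 3). This was the largest difference among the members tested, with a log2 fold change of 0.60, but its standard error was 0.39 and its 95% confidence interval ran from -0.33 to 1.54 (limma unadjusted p = 0.168). Its coefficient of variation was 31.9% in WT and 59.0% in *Ltf*-KO libraries, against a median of 14.1% in each genotype across genes at a mean between 1 and 10 TPM. Without *Ltf*-KO replicate 3, the log2 fold change was 1.05 (limma unadjusted p = 0.00287, adjusted p = 0.991). Without *Ltf*-KO replicate 2 it was 0.31 (limma unadjusted p = 0.452). These are bulk cultures, in which a change in the number of cells of a type and a change in RNA per cell cannot be told apart.

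*Mmp3* (ENSMUSG00000043613) encodes stromelysin-1, which cleaves proteoglycans and fibronectin and activates other pro-MMPs. Its levels were 0.86, 0.96 and 1.79 TPM in WT and 2.09, 2.57 and 0.63 TPM in *Ltf*-KO libraries, the same placement of libraries as for *Mmp13*. The means were 1.20 ± 0.511 TPM (SD, n = 3) and 1.76 ± 1.01 TPM (SD, n = 3), with a log2 fold change of 0.27 (standard error 0.33, 95% confidence interval -0.53 to 1.07, limma unadjusted p = 0.441). Without *Ltf*-KO replicate 3 it was 0.62 (limma unadjusted p = 0.0421, adjusted p = 0.994), and without *Ltf*-KO replicate 2 it was 0.051 (limma unadjusted p = 0.889).

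*Mmp11* (ENSMUSG00000000901), stromelysin-3, is activated by furin inside the cell and was the only tested member with a log2 fold change below 0. It was at 7.89, 8.24 and 7.07 TPM in WT and at 6.20, 6.60 and 7.22 TPM in *Ltf*-KO libraries. The genotypes overlapped only through WT replicate 3 and *Ltf*-KO replicate 3. The means were 7.73 ± 0.601 TPM (SD, n = 3) and 6.67 ± 0.514 TPM (SD, n = 3), a log2 fold change of -0.19 (standard error 0.088, 95% confidence interval -0.40 to 0.024, limma unadjusted p = 0.0739). It was -0.24 both without WT replicate 3 (limma unadjusted p = 0.0439) and without *Ltf*-KO replicate 3 (limma unadjusted p = 0.0491). It was -0.14 both without *Ltf*-KO replicate 1 (limma unadjusted p = 0.201) and without WT replicate 2 (limma unadjusted p = 0.202). The gene lies on chromosome 10, minus strand, from 75923222 to 75936496, where it overlaps *Chchd10* on the other strand, at 22.4 to 31.5 TPM. Whether the counting used strand is not given in the sources used here, so reads of overlapping genes cannot be assigned with certainty.

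*Mmp19* (ENSMUSG00000025355), a basement membrane-cleaving enzyme, was at 0.75, 0.49 and 1.36 TPM in WT and at 0.66, 1.02 and 0.67 TPM in *Ltf*-KO libraries, with the *Ltf*-KO values inside the WT range. With no filter its log2 fold change was -0.045 (limma unadjusted p = 0.825). It lies on chromosome 10, plus strand, from 128790910 to 128800824, and overlaps *Tmem198b* on the minus strand, a gene at 10.0 to 12.0 TPM. Of the 31-base words of its transcript Mmp19-201, 26.9% also occur in transcripts of other genes, mostly of *Tmem198b*, so its level is uncertain.

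Of the inhibitors, *Timp1* (ENSMUSG00000001131), a secreted inhibitor of most MMPs that also has growth factor-like actions, made up 80.5% to 84.6% of the summed TIMP level. It was at 511, 529 and 571 TPM in WT and at 537, 581 and 502 TPM in *Ltf*-KO libraries, with the highest and the lowest library both *Ltf*-KO. The means of 537 ± 30.4 TPM (SD, n = 3) and 540.2 ± 39.7 TPM (SD, n = 3) gave a log2 fold change of 0.0074 (standard error 0.065, 95% confidence interval -0.15 to 0.16, limma unadjusted p = 0.913). The gene lies on chromosome X, plus strand, from 20870166 to 20874735, inside *Syn1* on the minus strand, which was at 3.32 to 6.08 TPM.

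*Timp2* (ENSMUSG00000017466) was at 107, 106 and 98.7 TPM in WT and at 105, 95.1 and 114 TPM in *Ltf*-KO libraries. The means were 104 ± 4.57 TPM (SD, n = 3) and 104.9 ± 9.66 TPM (SD, n = 3), with a log2 fold change of 0.0089 (standard error 0.073, 95% confidence interval -0.17 to 0.18, limma unadjusted p = 0.906). *Timp1* and *Timp2* had the narrowest intervals of the members tested. Both log2 fold changes lay close to 0 and changed sign with median-of-ratios scaling and with some of the libraries left out. *Timp2* spans 118301069 to 118355740 on the minus strand of chromosome 11 and contains *Cep295nl*, at 0.58 to 1.03 TPM.

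*Timp3* (ENSMUSG00000020044) differs from the other inhibitors in that its protein stays bound to the matrix and also inhibits some ADAM proteases. It was at 6.34, 7.87 and 10.7 TPM in WT and at 10.0, 10.9 and 7.08 TPM in *Ltf*-KO libraries, again with WT replicate 3 and *Ltf*-KO replicates 1 and 2 on top. The means were 8.30 ± 2.20 TPM (SD, n = 3) and 9.34 ± 2.01 TPM (SD, n = 3), a log2 fold change of 0.16 (standard error 0.21, 95% confidence interval -0.35 to 0.67, limma unadjusted p = 0.474). It lies on chromosome 10, plus strand, from 86300372 to 86349506, inside *Syn3*. Although 36.7% of the 31-base words of Timp3-201 also occur in other transcripts, nearly all of these in *Syn3*, the latter was listed at only 0.03 to 0.20 TPM.

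**Figure D2:**
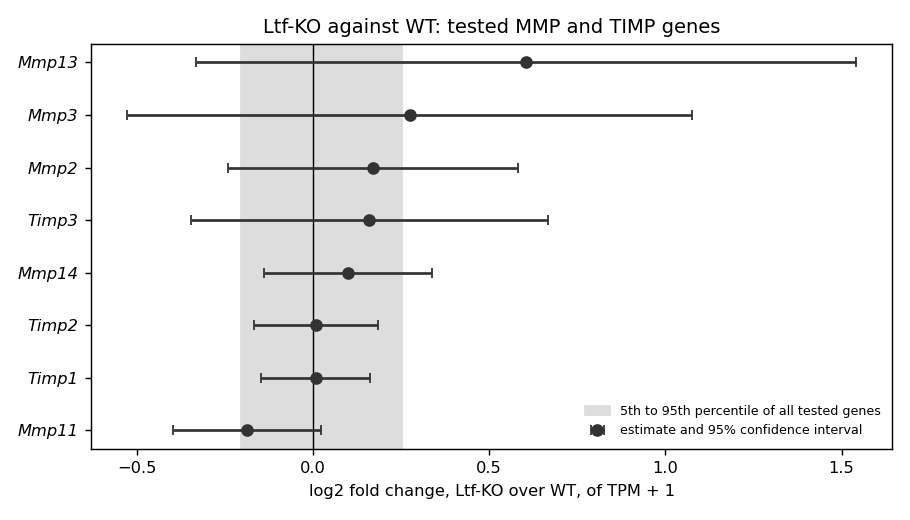
Estimated log2 fold change of TPM + 1, *Ltf*-KO over WT (horizontal axis), with its 95% confidence interval, for the 8 members tested, against the range from the 5th to the 95th percentile of all 12956 genes tested (grey, -0.21 to 0.25). Every interval covers 0, from the narrow ones of *Timp1* and *Timp2* to that of *Mmp13*, from -0.33 to 1.54.

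Of the 8 log2 fold changes, 7 were above 0, against 55.7% over all genes tested. Of the 7, those of *Timp1* and *Timp2* were 0.0074 and 0.0089, and both fell below 0 with median-of-ratios scaling. The median log2 fold change was 0.17 for the 5 enzymes and 0.0089 for the 3 inhibitors, beside a median of 0.011 over all genes tested. The summed level of the 7 enzymes was 106.5, 96.8 and 109 TPM in WT and 118, 127 and 94.98 TPM in *Ltf*-KO libraries, a ratio of means of 1.09. That of the 3 inhibitors was 625, 643 and 680.05 TPM in WT and 653, 687 and 623 TPM in *Ltf*-KO libraries, a ratio of 1.01. Inhibitor RNA exceeded enzyme RNA 5.43- to 6.64-fold in every library, by 6.25 ± 0.388 (SD, n = 3) in WT and 5.84 ± 0.631 (SD, n = 3) in *Ltf*-KO SCs. For the pairs of the surface complex, the ratio of *Mmp2* to *Timp2* was 0.0970 ± 0.0226 (SD, n = 3) in WT and 0.111 ± 0.0320 (SD, n = 3) in *Ltf*-KO SCs, with a two-sided exact permutation p of 0.7. The ratio of *Mmp14* to *Timp2* was 0.796 ± 0.0634 (SD, n = 3) and 0.859 ± 0.183 (SD, n = 3), also with an exact permutation p of 0.7, and with 3 libraries a genotype this test cannot go below 0.1. Without *Ltf*-KO replicate 2 both ratios were lower in *Ltf*-KO than in WT SCs, at 0.976 and 0.975 times the WT value.

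*Mmp13* and *Mmp3* belong to a cluster of 10 MMP genes on chromosome 9, from 7272514 to 7699585 on GRCm38, a span of 427 kb. *Ltf* is on the same chromosome, 103 Mb away. Only 3 of the 10 were at a mean of 1 TPM or more, *Mmp13*, *Mmp10* and *Mmp3*, and 6 were under 0.1 TPM, of which *Mmp1a*, *Mmp27*, *Mmp20* and *Mmp7* were listed at 0 in every library. *Mmp12*, the macrophage elastase, had a mean of 0.342 TPM. *Mmp10*, which encodes stromelysin-2, was at 1.15, 0.98 and 1.84 TPM in WT and at 2.09, 3.14 and 0.70 TPM in *Ltf*-KO libraries, with a log2 fold change of 0.28 (limma unadjusted p = 0.440). The 3 genes thus placed the libraries alike, with *Ltf*-KO replicate 2 highest, then *Ltf*-KO replicate 1 and WT replicate 3, and *Ltf*-KO replicate 3 lowest. *Mmp3* and *Mmp10* share sequence. Of the 31-base words of Mmp3-201, 14.6% occur in other genes, most of them in *Mmp10*, and for Mmp10-201 the share was 11.9%, so reads that fit both cannot be assigned with certainty. Mmp13-201 shares 0 such words with any other gene. *Mmp13* spans 7272514 to 7283331 and *Mmp3* 7445822 to 7455975, both on the plus strand.

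**Figure D3:**
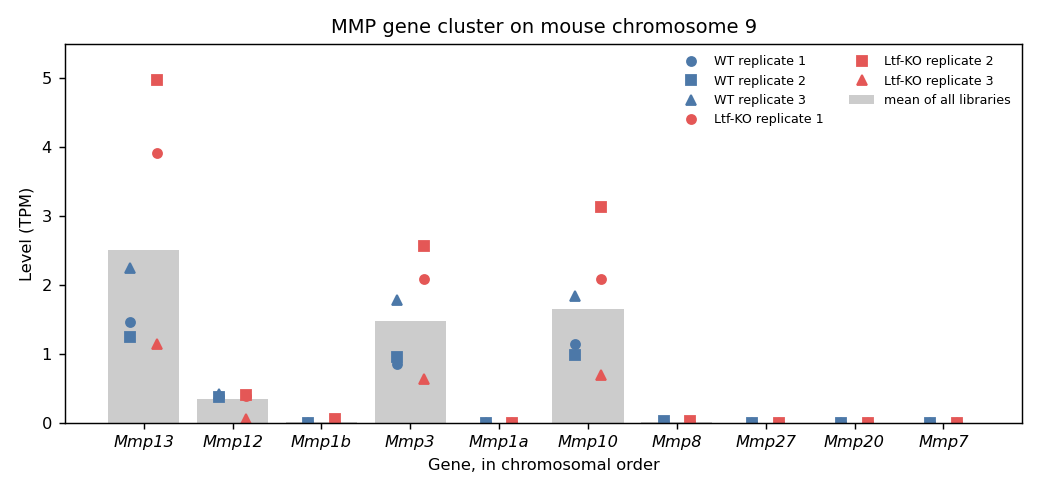
Level in TPM (vertical axis) of the 10 MMP genes of the chromosome 9 cluster, in chromosomal order, in the 3 WT (blue) and 3 *Ltf*-KO (red) libraries, with the mean of all libraries as a grey bar. Only *Mmp13*, *Mmp3* and *Mmp10* have a mean above 1 TPM, and in each of them *Ltf*-KO replicates 1 and 2 are the highest libraries and *Ltf*-KO replicate 3 is the lowest.

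Since these 3 genes of the cluster placed the libraries alike, the 250 bases before their start sites are shown, from RefSeq on GRCm38.p6. Promoters were matched for 7 of the 10 members, and *Mmp2*, *Mmp9* and *Mmp19* had no entry. Motifs of known MMP regulators were searched and are in capitals, TGANTCA, which AP-1 binds and which reads alike on both strands, and AGGAAG, bound by Ets factors, on both strands. In *Mmp13*, chr9:7272264-7272513 on the plus strand of GRCm38.p6, TGANTCA lies 35 to 29 bases before the start and AGGAAG 109 to 104 and 62 to 57 bases before it. In *Mmp3*, chr9:7445572-7445821 on the plus strand, they lie 46 to 40 and 183 to 178 bases before it, and in *Mmp10*, chr9:7502092-7502341 on the plus strand, TGANTCA lies 63 to 57 bases before it.
Mmp13: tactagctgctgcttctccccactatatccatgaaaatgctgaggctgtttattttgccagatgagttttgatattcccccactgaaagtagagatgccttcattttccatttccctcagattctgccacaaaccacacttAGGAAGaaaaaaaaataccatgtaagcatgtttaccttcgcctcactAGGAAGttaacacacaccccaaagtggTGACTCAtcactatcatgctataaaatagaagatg
Mmp3: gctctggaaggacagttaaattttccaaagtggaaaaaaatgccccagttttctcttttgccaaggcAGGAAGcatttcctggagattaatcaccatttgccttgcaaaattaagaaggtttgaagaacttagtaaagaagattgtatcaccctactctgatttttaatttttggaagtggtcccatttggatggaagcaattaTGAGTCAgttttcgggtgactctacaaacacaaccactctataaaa
Mmp10: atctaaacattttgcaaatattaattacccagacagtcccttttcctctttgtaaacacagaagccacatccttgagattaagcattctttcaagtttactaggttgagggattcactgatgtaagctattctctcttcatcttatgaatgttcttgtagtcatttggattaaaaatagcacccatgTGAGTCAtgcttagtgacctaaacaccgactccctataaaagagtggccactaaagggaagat

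TGANTCA had 1 match in each of *Mmp13*, *Mmp3* and *Mmp10* and none in the same window of *Mmp11*, *Mmp14*, *Timp1*, *Timp2* or *Timp3*. Of all 32851 promoters of the table, 6.75% held it. It also occurred before genes of the cluster that were listed at 0, *Mmp1a* and *Mmp20*, and before 1 of 2 starts of *Mmp7*. *Mmp1b*, at a mean of 0.0083 TPM, and 1 of 2 starts of *Mmp12*, at 0.342 TPM, held it as well. Within the cluster only *Mmp8* and *Mmp27* had no match. AGGAAG was found in 5 of the 7 members, *Mmp13*, *Mmp3*, *Mmp14*, *Timp1* and *Timp3*, and in 29.5% of all promoters. TATAAA, searched on the gene's own strand, was present in *Mmp13*, *Mmp3* and *Mmp10*, 16 to 11, 7 to 2 and 29 to 24 bases before the start, and in 7.59% of all promoters. In the cluster it also lay before *Mmp1a*, *Mmp1b*, *Mmp20* and 1 of 2 starts of *Mmp7*, and outside it before *Mmp21*. None of these motifs overlapped another in the 3 sequences. A match is a stretch of letters and does not show that a factor binds there.

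The order of the libraries within each gene was looked at after the values were seen. *Ltf*-KO replicates 1 and 2 and WT replicate 3 were the 3 highest libraries for 5 of the 8 members tested, *Mmp2*, *Mmp3*, *Mmp13*, *Timp1* and *Timp3*. The same 3 were highest for 9.15% of all genes tested, the most frequent of the 20 possible sets. They were the 3 lowest for *Mmp11* and *Timp2*, 2 of the 8, as for 5.02% of all genes tested. For *Mmp14*, WT replicate 1 took the place of WT replicate 3 among the highest. The set crosses the genotypes, and the members are not independent replicates of it.

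Other genes varied over the libraries in the same way. Among 8072 genes that reached a mean level of 10 TPM, those whose values were most like *Mmp13*, by the root-mean-square difference of log2(TPM + 1) centred on each gene's mean over the 6 libraries, were *Inhba* (0.188), *Ccl2* (0.245), *Postn* (0.2496), *Ptgs2* (0.260) and *Fbln2* (0.265). The median over all of them was 0.567, about the difference that a gene of constant level would have. These genes were picked as the closest, so the contrast is no test. *Inhba*, the activin A subunit, was at 14.6, 12.8 and 18.4 TPM in WT and at 22.0, 29.3 and 13.6 TPM in *Ltf*-KO libraries. *Ccl2* is a monocyte chemokine, *Ptgs2* the inducible cyclooxygenase, and *Postn* and *Fbln2* are matrix proteins. Some markers of other cell types, 9 of the 22 tested, were also highest in *Ltf*-KO replicates 1 and 2 and WT replicate 3, against 9.15% of all genes tested. The 12 fibroblast markers summed to 150.2, 150.6 and 161 TPM in WT and to 197, 187 and 149 TPM in *Ltf*-KO libraries. Of them 9 were tested, of which 1, *Mfap5*, was higher at an unadjusted p under 0.05, against 3.78% of all genes tested in either direction. Of these 9, *Pdgfra*, *Dcn*, *Col1a1* and *Postn* were highest in the same 3 libraries and the other 5, *Ly6a*, *Col3a1*, *Thy1*, *Fbln1* and *Mfap5*, were not. *Col3a1*, the largest part of the sum, was lowest in WT replicate 3, at 88.0 TPM, as was *Fbln1*, at 10.6 TPM, and *Ly6a* was highest in *Ltf*-KO replicate 3, at 3.21 TPM. The untested *Lum*, *Pi16* and *Dpt* were at 0 to 0.37 TPM. The 7 endothelial markers summed to 9.98, 7.59 and 18.3 TPM in WT and to 17.9, 18.1 and 9.12 TPM in *Ltf*-KO libraries, with *Pecam1*, *Cdh5*, *Emcn* and *Egfl7* highest in the same 3. Of the 5 tested 1, *Egfl7*, was higher at an unadjusted p under 0.05, against the same 3.78%. *Myog*, which marks differentiating myoblasts, went the other way in part, at 319, 410.3 and 293 TPM in WT and 360.4, 266 and 508 TPM in *Ltf*-KO libraries, lowest in *Ltf*-KO replicate 2 and highest in *Ltf*-KO replicate 3. The part of these cells and of differentiation in the levels of the members was not tested.

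**Figure D4:**
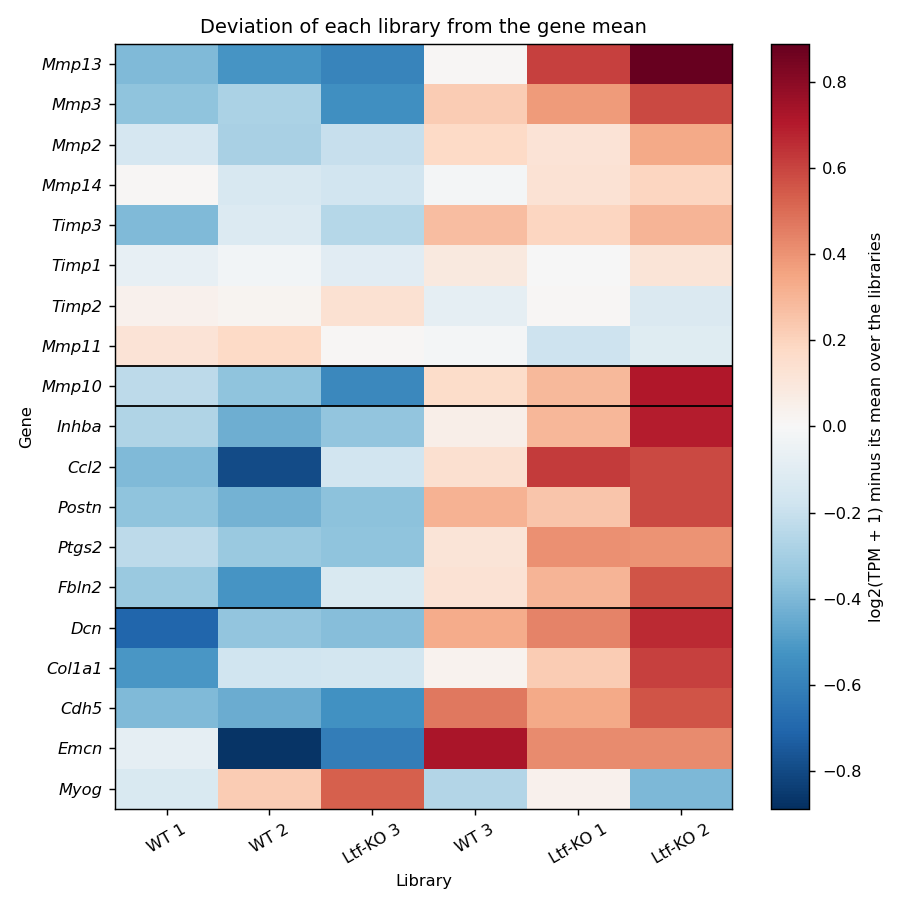
Colour shows each library's log2(TPM + 1) minus the gene's mean over the 6 libraries (columns), for the 8 members tested, *Mmp10*, the 5 genes most like *Mmp13*, and some markers of fibroblasts, endothelial cells and differentiating myoblasts (rows, in blocks divided by lines). The fibroblast and endothelial markers shown, *Dcn*, *Col1a1*, *Cdh5* and *Emcn*, are all highest in WT replicate 3 and *Ltf*-KO replicates 1 and 2. Fibroblast markers without this order, such as *Col3a1* and *Fbln1*, are not shown. *Mmp3*, *Mmp2* and *Timp3* are above their means in WT replicate 3 and *Ltf*-KO replicates 1 and 2, as *Dcn* and *Cdh5* are, while *Timp2* and *Mmp11* are at their lowest there.

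The sums of the remaining marker lists did not follow this order. The 11 satellite cell and myoblast markers summed to 2281 to 2446 TPM in WT and to 2291 to 2574 TPM in *Ltf*-KO libraries, and 0 of 9 tested had an unadjusted p under 0.05. The 6 smooth muscle and pericyte markers summed to 455 to 540.4 TPM in WT and to 507 to 639 TPM in *Ltf*-KO libraries, mostly from *Acta2*. Of them 4 were tested and 1, *Pdgfrb*, was higher at an unadjusted p under 0.05, against 3.78% of all genes tested in either direction.

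Of the 16 other MMP genes, 4 were at a mean of 1 TPM or more, and 0 of these had an unadjusted p under 0.05. *Mmp15*, a second membrane-type enzyme, was the highest, at 12.1 ± 0.707 TPM (SD, n = 3) in WT against 12.0 ± 1.02 TPM (SD, n = 3) in *Ltf*-KO libraries, thus above *Mmp2* in mean level. *Mmp23* was at 1.79 ± 1.12 TPM (SD, n = 3) and 1.46 ± 0.630 TPM (SD, n = 3).

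Of 6 other inhibitors, clearance receptors and matrix chaperones, 5 were tested and 0 had an unadjusted p under 0.05. *Lrp1*, the endocytic receptor that clears MMP and TIMP complexes and also binds lactoferrin, was at 251 ± 20.5 TPM (SD, n = 3) in WT against 263 ± 32.3 TPM (SD, n = 3) in *Ltf*-KO libraries. *Serpinh1*, a collagen chaperone and no inhibitor of MMPs, was at 571 ± 4.63 TPM (SD, n = 3) and 588 ± 8.98 TPM (SD, n = 3), and *Serping1* at 7.78 ± 0.795 TPM (SD, n = 3) and 7.48 ± 0.613 TPM (SD, n = 3). The libraries of *Serpinh1* did not overlap between the genotypes, at 566 to 576 TPM in WT and 580 to 598 TPM in *Ltf*-KO (limma unadjusted p = 0.146). It was the 1 of the 5 tested without overlap, against 8.46% of all genes tested.

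Of 13 genes of pro-enzyme activation, which cover the plasminogen system, furin-like convertases and the surface partners *Bsg* and *Cd44*, 11 were tested. At an unadjusted p under 0.05, 1 was higher and 0 lower in *Ltf*-KO SCs, against 3.78% of all genes tested in either direction. The one was *Serpinb2*, plasminogen activator inhibitor 2, which restrains this activation, at 2.51, 3.22 and 2.66 TPM in WT and 4.36, 4.12 and 3.12 TPM in *Ltf*-KO libraries, with a log2 fold change of 0.35 (limma unadjusted p = 0.0435, adjusted p = 0.999). *Bsg*, the MMP inducer basigin, was at 529 and 528 TPM, and *Cd44*, a surface anchor of MMPs, at 345 and 347 TPM, as means of WT and *Ltf*-KO libraries.

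Lysosomal cathepsins degrade collagen that cells have taken up. Of 5, 4 were tested, and *Ctsk*, a collagenolytic cathepsin, was the 1 with an unadjusted p under 0.05, against 3.78% of all genes tested. It was at 3.37, 3.23 and 6.00 TPM in WT and at 8.08, 9.65 and 5.07 TPM in *Ltf*-KO libraries, and its log2 fold change was 0.73 with a standard error of 0.27 (limma unadjusted p = 0.0343, adjusted p = 0.999). *Ltf*-KO replicates 1 and 2 and WT replicate 3 were its highest libraries too, as for *Ctsb*, *Ctsd* and *Ctsl*, against 9.15% of all genes tested. The means of *Ctsb*, *Ctsd* and *Ctsl* lay between 225 and 539 TPM in both genotypes.

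Of 28 ADAM and ADAMTS genes, a related family of which TIMP-3 inhibits only some members, 16 were tested and 0 had an unadjusted p under 0.05. In 1 of the 16, *Adam8*, the genotypes did not overlap, against 8.46% of all genes tested. It was at 0.95 to 1.32 TPM in WT and at 1.34 to 1.54 TPM in *Ltf*-KO libraries. The highest were *Adam9*, *Adam10* and *Adam17*, at 54.2, 42.1 and 34.0 TPM in WT and 56.2, 42.8 and 32.8 TPM in *Ltf*-KO SCs. Of 25 matrix substrates, 22 were tested, and none had an unadjusted p under 0.05. Of their log2 fold changes 20 were above 0, against 55.7% over all genes tested. Their median was 0.090, against 0.011 over all genes tested. *Sparc* was at 926 ± 12.1 and 954 ± 52.8 TPM (SD, n = 3 each), *Fn1*, fibronectin, at 362 ± 32.7 and 383 ± 74.5 TPM (SD, n = 3 each), and *Col5a2* at 273 ± 15.1 and 272 ± 23.8 TPM (SD, n = 3 each), in WT and *Ltf*-KO SCs. For 11 of these 22 genes the highest libraries were again *Ltf*-KO replicates 1 and 2 and WT replicate 3, against 9.15% of all genes tested. That set crosses the genotypes.

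Of 24 known inducers of MMP genes, which include AP-1 and Ets factors and inflammatory cytokines, 20 were tested and 0 had an unadjusted p under 0.05. *Junb*, *Fosl1* and *Jun*, subunits of AP-1, were at 121, 119 and 120 TPM in WT and at 122, 121 and 117 TPM in *Ltf*-KO SCs. Their log2 fold changes were 0.011, 0.021 and -0.031. For 6 of the 20 tested inducers, *Ltf*-KO replicates 1 and 2 and WT replicate 3 were the highest libraries, against 9.15% of all genes tested. These were *Fos*, *Fosb*, *Fosl2*, *Ets1*, *Egr1* and *Il1b*, and *Junb*, *Fosl1* and *Jun* were not among them. Whether any of these factors had a part in the levels of the members was not tested.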

How the data were processed

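The authors deposited one table of TPM values, with 2 decimals, for 55416 genes in 6 libraries of total RNA. Per the labels, the submitters' processing notes name the genome build GRCm39, and the aligner, counting tool and annotation are not given in the sources used here. Coordinates and transcripts are from GENCODE on GRCm38, found by identifier and name, since the table holds none. Promoters are from RefSeq (GRCm38.p6).

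Libraries were grouped by genotype label. *Ltf*-KO was compared with WT by limma 3.58.1 in R 4.3.3 (lmFit, eBayes with a variance trend) on log2(TPM + 1), for genes whose mean reached 1 TPM, with two-sided tests and Benjamini-Hochberg adjustment. The fit was tested on simulated data. TPM keeps no depth, so no counting interval is given. Ratios within libraries were compared by exact permutation tests. Alternatives were a pseudocount of 0.1, no filter, a mean of at least 10 TPM, quantile normalization, median-of-ratios scaling, no variance trend, the replicate number as a block, and each library left out.

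The members and lists were chosen with earlier results of these data known. Named genes were the members, *Ltf*, the 3 highest genes of each pathway list with up to 3 at an unadjusted p under 0.05, the 5 genes most like the most variable member, and markers. Other genes were named after their values were seen. One gene that this rule names is not reported.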

Additional observations from a re-analysis of the deposited data

How the results depend on the processing

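Of all genes tested, 490 had an unadjusted p under 0.05. Dropping the filter gave 890 such genes and raising it to a mean of 10 TPM gave 281, out of more and fewer genes, while the replicate block gave 380 and the fits that left out single libraries gave 446 to 613. Lower levels in *Ltf*-KO made up 46.9% of the 490, and 60.04% and 55.8% after quantile normalization and median-of-ratios scaling. The count at a limma adjusted p under 0.05 was 0, and 0 to 7 when single libraries were left out (7 without WT replicate 2, 2 without WT replicate 3, 6, 2 and 3 without *Ltf*-KO replicates 1, 2 and 3), with 0 members among them. The members at an unadjusted p under 0.05 numbered 0, and 1 with no filter (*Mmp9*), where 3.35% of genes had one. They numbered 0 to 4 when single libraries were left out. The 1 without WT replicate 3 was *Mmp11*, where 470 of 12954 genes had an unadjusted p under 0.05. Without *Ltf*-KO replicate 3 there were 4 (*Mmp3*, *Mmp11*, *Mmp13* and *Mmp14*), where 613 of 12970 genes had one. The limma adjusted p of these members was at least 0.99 in both fits. The log2 fold changes of *Timp1* and *Timp2* were -0.0031 and -0.0014 with median-of-ratios scaling, and lay within -0.047 to 0.059 and -0.055 to 0.077 when single libraries were left out. Leaving out WT replicate 3 or *Ltf*-KO replicate 1 with no filter turned that of *Mmp19* from -0.045 to 0.14 or 0.0033. The *Ltf*-KO to WT ratio of *Mmp2* to *Timp2* lay between 0.976 and 1.32, and that of *Mmp14* to *Timp2* between 0.975 and 1.20, in the same fits. The causes were not tested. The log2 fold changes of *Mmp2*, *Mmp3*, *Mmp11*, *Mmp13*, *Mmp14* and *Timp3* kept their sign under every alternative run, and for *Mmp13* they ranged from 0.31 to 1.05. The summed MMP and TIMP levels of *Ltf*-KO were 1.02 to 1.18 and 0.983 to 1.03 times those of WT. The filter at 10 TPM gave no value for *Mmp3*, *Mmp9*, *Mmp11*, *Mmp13*, *Mmp19* and *Timp3*. Each genotype has replicates 1, 2 and 3. After every gene was centred on its genotype mean, WT and *Ltf*-KO libraries of equal number correlated at -0.041, -0.058 and -0.088. Pairs of unequal number correlated at -0.026 to 0.087. With 3 libraries a genotype and values this small in both sets, whether libraries of equal number shared a preparation cannot be decided. With the replicate block 0 members had an unadjusted p under 0.05. Values under 1 TPM, as of *Mmp9* and *Mmp19*, are the least certain, since their read numbers are unknown.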

Other observations

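Of 22 tested markers of fibroblasts, macrophages, neutrophils, endothelial cells and smooth muscle or pericytes, 3 had an unadjusted p under 0.05, against 3.78% of all genes tested, all higher in *Ltf*-KO SCs and all with a limma adjusted p of 0.999. *Mfap5*, a microfibril protein of fibroblasts, was at 1.24, 1.53 and 2.24 TPM in WT and at 3.78, 3.24 and 2.66 TPM in *Ltf*-KO libraries, without overlap. *Pdgfrb*, a receptor of pericytes and fibroblasts, was at 3.73, 3.89 and 4.71 TPM in WT and at 6.95, 7.51 and 4.80 TPM in *Ltf*-KO libraries, also without overlap. *Egfl7*, an endothelial matrix protein, was at 2.32, 1.91 and 3.30 TPM in WT and at 5.74, 4.61 and 3.29 TPM in *Ltf*-KO libraries, where *Ltf*-KO replicate 3 overlapped WT replicate 3. Together with *Cd68*, which was lower in *Ltf*-KO, 3 of the 22 did not overlap between the genotypes, against 8.46% of all genes tested. In *Mfap5*, *Pdgfrb* and *Egfl7*, *Ltf*-KO replicate 3 was the lowest *Ltf*-KO library and WT replicate 3 the highest WT library.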
